A study of Mus musculus with 32 samples.

Results

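Ventricles of mice carrying a cardiac specific AT1 transgene were set against ventricles of wild type mice, with the hypertrophy and failure states of the transgenic mice pooled. The samples were chosen by their titles alone, and the comparison takes in all 32 arrays of the series: 11 transgenic arrays (8 in cardiac hypertrophy and 3 in cardiac failure) and 5 wild type arrays with a normal cardiac phenotype on each of 2 Affymetrix array types that carry different probe sets. Total RNA came from cardiac ventricle. Neither the promoter of the transgene nor the species of its coding sequence is in the labels, and age, sex and strain are missing from them too. AT1 is left unexplained there; for the heart it is the common short name of the angiotensin II type 1 receptor. Whether replicates were different animals is likewise unstated, and p-values therefore cover only the spread among these arrays, which could be technical in part.

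The angiotensin II type 1 receptor is a G protein coupled receptor that signals through Gq and phospholipase C, and in cardiac muscle cells its activation is known for driving growth. Hypertrophied and failing mouse ventricles commonly re-express fetal genes such as those of the natriuretic peptides, skeletal actin and the slow myosin heavy chain, lay down matrix, and run down mitochondrial energy metabolism. A change shared by both states is one that goes with the transgene whether the ventricle was hypertrophied or failing.

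The measured quantity is a linear intensity for each probe set and array, called signal here. Signals under a floor, the 20th percentile of all values of the type (39.6 on the first and 27.5 on the second), were raised to that floor before taking log2. A log2 difference is the mean of the transgenic arrays minus that of the wild type arrays, with its standard error (SE). A probe set is called when its adjusted p is under 0.05 in limma, with Benjamini-Hochberg adjustment over all probe sets tested on the array type. Every adjusted p below comes from that adjustment.

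Of the 7004 probe sets tested on the second type, 15 were called (0.214%), 11 higher and 4 lower in the transgenic ventricles. All 15 had the sign of the pooled difference in hypertrophy alone and in failure alone. Selection on the pooled difference largely fixes this count, since hypertrophy gives 8 of the 11 transgenic arrays and both states share the wild type arrays: the signs were the same in 68.7% of all probe sets of this type and in 771 of the 771 with an unadjusted p under 0.05. Taken alone, hypertrophy had an adjusted p under 0.05 in 11 of the 15, and failure, with 3 arrays, in 4 (Styx, Slc13a1, Med28 and 109531_at). Over all 7004 probe sets the order was the other way, with 12 for hypertrophy alone and 25 for failure alone. In 12 of the 15 the 11 transgenic arrays did not overlap with the 5 wild type arrays, which over all probe sets of this type held for 33 (0.471%). Leaving out single arrays moved the 15 calls to 61 without hypertrophy replicate 1, to 9 without failure replicate 1, hypertrophy replicate 8 or wild type replicate 3, to 7 without wild type replicate 1 and to 5 without wild type replicate 4. Without any adjustment 771 had p under 0.05 (11%), 557 of them higher and 214 lower. That split follows the scaling, at 72.2% higher as deposited, 41.2% with median scaling and 47.3% with quantile normalization. On the first type limma called none of 6980 probe sets (0%). There 455 had an unadjusted p under 0.05 (6.52%), 143 higher and 312 lower, and the smallest adjusted p was 0.268. The higher share was 31.4% in this median-scaled fit, 50.1% with the values as deposited and 44.7% with quantile normalization. Only 10 probe sets of the first type did not overlap between transgenic and wild type arrays (0.143%). Against wild type on that type, hypertrophy alone had an adjusted p under 0.05 in 0 probe sets and failure alone in 33.

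Median signals of the arrays as deposited lay between 91.8 and 120.9 on the first type and between 69.3 and 80.6 on the second. In the first-type control probe sets for Gapdh, the ratio of the 5′ to the 3′ signal was 0.468 in hypertrophy replicate 6 and 0.0487 in hypertrophy replicate 7, while wild type arrays had 0.889 ± 0.0543 (SD, n = 5). On the second type it was 0.379 and 0.0414 in these 2 replicates, against 0.843 ± 0.0518 (SD, n = 5) in wild type. The first-type ratio for Actb was 0.772 ± 0.223 (SD, n = 11) in transgenic and 0.623 ± 0.0819 (SD, n = 5) in wild type arrays. On the second type these were 0.898 ± 0.279 and 0.747 ± 0.144. Leaving out both hypertrophy arrays gave 11 calls on the second type, 10 of them among the 15, and 1 call on the first.

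Styx, the gene of a pseudophosphatase, had the largest difference of all in 1 of its probe sets. Its product is a phosphatase-like protein that binds phosphorylated partners without cutting off the phosphate. The signals in wild type ventricle were 31.0, 1, 8.37, 4.04 and 21.7. In hypertrophy they ran from 1580 through a median of 1932 to 2413, and in failure they were 1954, 2229 and 1065. All 11 transgenic arrays stood far above all wild type arrays, of which only the one of replicate 1 rose above the floor. The log2 difference was 6.03 ± 0.14 (SE, n = 11 and 5; adjusted p = 2.32e-15), and because 4 wild type arrays were at the floor it stands for at least 65.3-fold higher signal. The difference was 6.08 ± 0.15 in hypertrophy and 5.89 ± 0.19 in failure, and failure minus hypertrophy had a 95% interval of -0.58 to 0.19.

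Other probe sets assigned to Styx do not show this. One on the second type had signals of 34.4 to 79.2 in wild type and 35.3 to 54.3 in the transgenic arrays, and one on the first type had 14.4 to 32.1 and 7.63 to 25.0. Both were too dim to be tested, and their groups overlapped. So the difference belongs to a single probe set named for Styx, and the values do not tell which transcript it measured.

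Slc13a1, a sodium and sulfate cotransporter best known from the kidney, was also higher. Its signals were 192, 214, 244, 283 and 192 in wild type ventricle, between 689 and 1503 with a median of 1001 in hypertrophy, and 1018, 1289 and 709 in failure. The groups were apart, with the lowest transgenic array at 689 and the highest wild type array at 283. The log2 difference was 2.19 ± 0.18 (adjusted p = 1.94e-06), a 4.58-fold higher signal, with 2.22 ± 0.20 in hypertrophy and 2.13 ± 0.25 in failure. The 95% interval of failure minus hypertrophy was -0.58 to 0.41. The difference rests on 1 probe set, and which transcript that probe set measured was not tested.

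**Figure D1:**
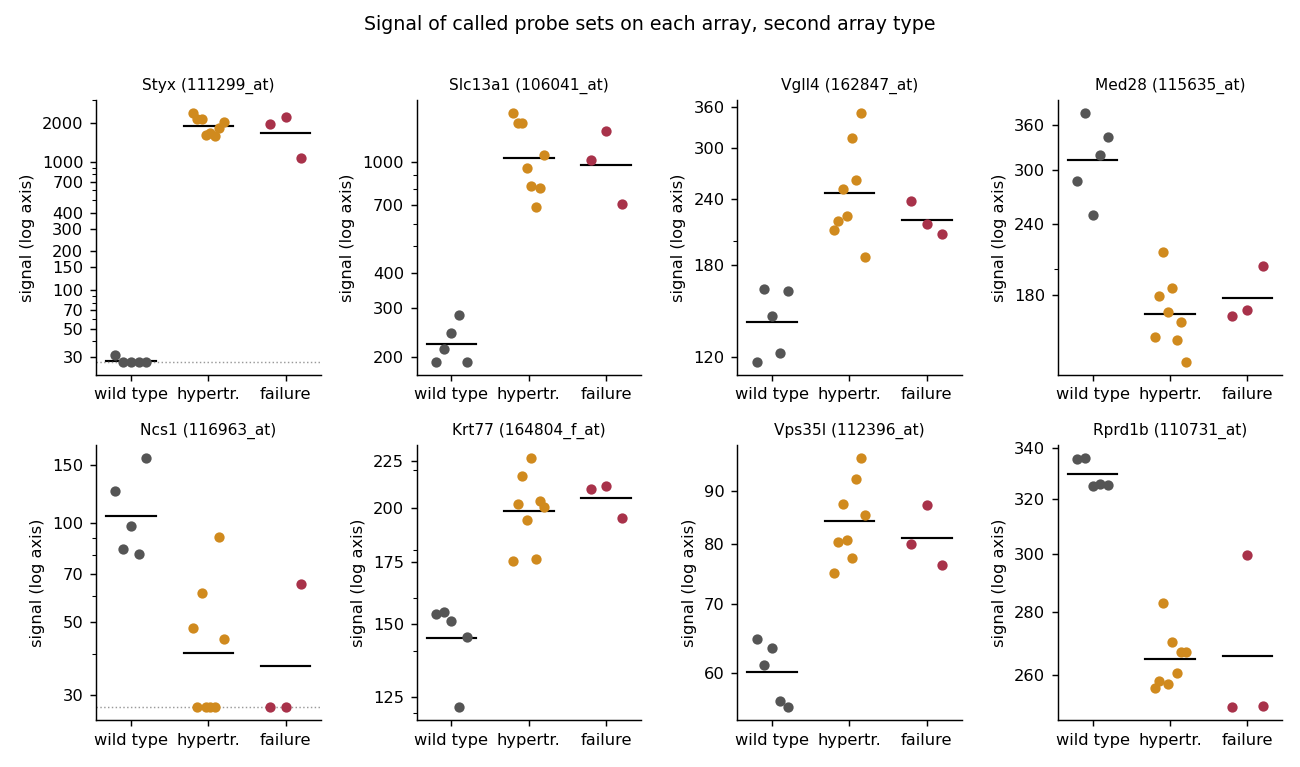
Signal (log axis) of 8 called probe sets of the second array type on each of the 5 wild type, 8 hypertrophy and 3 failure arrays; points are arrays, black bars are means of log2 signals and the dotted line is the floor of 27.5, drawn where an array reaches it. Wild type arrays of Styx lie at or near the floor and all transgenic arrays at 1065 or more, and only the panel of Ncs1 shows overlap between wild type and transgenic arrays.

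Vgll4 encodes a cofactor that binds TEAD transcription factors in competition with the growth-promoting factor YAP. Its signals were 117, 162, 143, 122 and 160 in wild type, 186 to 351 with a median of 236 in hypertrophy, and 238, 215 and 205 in failure. Every transgenic array exceeded every wild type array. The log2 difference was 0.77 ± 0.13 (adjusted p = 0.0158), or 1.71-fold, with 0.82 ± 0.14 in hypertrophy and 0.65 ± 0.18 in failure. It was no longer called without wild type replicate 1, 3 or 4, where the adjusted p was 0.111, 0.0528 and 0.0786. Further probe sets for Vgll4 differed by 0.16 ± 0.10 (adjusted p = 0.588) and -0.02 ± 0.13 (adjusted p = 0.978), which leaves a single Vgll4 probe set with a call. Vgll4 was the sole member called of all the pathway lists described below.

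Med28, a subunit of the Mediator complex that links transcription factors to RNA polymerase, was lower. The wild type signals were 286, 379, 250, 319 and 343. Hypertrophy signals lay between 137 and 215 with a median of 165, and failure signals were 165, 169 and 202. No transgenic array reached the lowest wild type array. The log2 difference was -0.88 ± 0.11 (adjusted p = 5.63e-04), 1.84-fold lower, with -0.90 ± 0.12 in hypertrophy and -0.81 ± 0.15 in failure. Its probe set on the first type was brighter and differed by 0.01 ± 0.11 (adjusted p = 0.995).

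Ncs1, a neuronal calcium sensor also made in heart muscle, was lower and dim. Its signals were 125, 83.5, 97.8, 80.5 and 158 in wild type, 1 to 90.9 with a median of 32.6 in hypertrophy, and 1, 19.2 and 65.0 in failure. Of the 11 transgenic arrays 6 were at the floor, and 1 of the other 5, that of hypertrophy replicate 7 (90.9), overlapped with wild type. The log2 difference of -1.43 ± 0.28 (adjusted p = 0.0473) therefore stands for at least 2.69-fold lower signal, with -1.39 ± 0.31 in hypertrophy and -1.52 ± 0.39 in failure. Its brighter probe set on the first type differed by 0.05 ± 0.10 (adjusted p = 0.943). The call was kept only without failure replicate 3 or hypertrophy replicate 1, 3 or 7, and leaving out any of the other 12 arrays ended it, with an adjusted p of up to 0.160.

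Promoters of these genes are shown because they are the called genes with the largest differences for which a sequence was at hand; the table of RefSeq promoters (GRCm38.p6) held 8 of the 11 called genes with a proper symbol. Each line gives the 250 bases before the transcription start on the strand of the gene, and capitals mark exact matches, on either strand, to GGAATG (bound by TEAD factors), AGATAA (the letters of GATA factors), GGGCGG (known as the GC box), the letters CCAAT, and TATAAA (bound by the TATA-binding protein); a GC box match may overlap the next one.
Styx: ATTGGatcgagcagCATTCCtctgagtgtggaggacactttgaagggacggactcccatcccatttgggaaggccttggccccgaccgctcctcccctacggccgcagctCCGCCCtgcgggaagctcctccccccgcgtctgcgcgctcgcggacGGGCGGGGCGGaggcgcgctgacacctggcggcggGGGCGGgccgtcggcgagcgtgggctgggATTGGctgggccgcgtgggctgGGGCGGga
Vgll4: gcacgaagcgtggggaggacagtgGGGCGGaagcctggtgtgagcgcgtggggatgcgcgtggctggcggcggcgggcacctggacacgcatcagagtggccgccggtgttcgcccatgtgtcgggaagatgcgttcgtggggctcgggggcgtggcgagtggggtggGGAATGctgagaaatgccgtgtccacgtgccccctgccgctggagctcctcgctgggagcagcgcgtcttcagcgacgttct
Med28: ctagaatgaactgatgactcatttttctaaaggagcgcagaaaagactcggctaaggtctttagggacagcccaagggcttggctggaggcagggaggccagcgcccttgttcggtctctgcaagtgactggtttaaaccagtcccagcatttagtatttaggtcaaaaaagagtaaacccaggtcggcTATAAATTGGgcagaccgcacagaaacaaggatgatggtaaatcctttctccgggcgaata
Ncs1: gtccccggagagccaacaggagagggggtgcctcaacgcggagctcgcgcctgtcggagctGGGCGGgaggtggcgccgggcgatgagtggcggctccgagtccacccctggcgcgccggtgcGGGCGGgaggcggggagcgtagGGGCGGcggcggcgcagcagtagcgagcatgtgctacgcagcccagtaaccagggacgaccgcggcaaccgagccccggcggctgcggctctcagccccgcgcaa
The Styx window lies at chr14:45350936-45351185 on the plus strand, that of Vgll4 at chr6:114969204-114969453 on the minus strand, that of Med28 at chr5:45519979-45520228 on the plus strand and that of Ncs1 at chr2:31245673-31245922 on the plus strand. Among all 32851 RefSeq promoter windows of this length, 12.6% hold GGAATG, 9.99% AGATAA, 32.7% hold GGGCGG, 33.8% hold CCAAT and 12.4% hold TATAAA. Styx and Vgll4, both higher, each have 1 match to the TEAD letters, and Med28 and Ncs1, both lower, have none; over all 8 promoters the letters are in 3 of 4 of higher genes (not in that of Krt77) and in 0 of 4 of lower genes, numbers too small to compare. The Med28 window is the only one of the 4 with TATAAA, and its G and C content of 48.4% is below that of Styx (72.8%), Vgll4 (69.6%) and Ncs1 (75.6%). These matches describe the letters of the windows and say nothing about which factor binds.

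The other called genes with a proper symbol differed by less than 1 on the log2 scale. Krt77, an epidermal keratin whose probe set may bind relatives of its family, had wild type signals of 154, 154, 151, 122 and 145 against 175 to 227 with a median of 202 in the transgenic arrays. These groups did not overlap, and the log2 difference was 0.47 ± 0.08 (adjusted p = 0.0126). Further Krt77 probe sets, too dim to be tested, did not show the rise. One on the second type had 51.4 to 68.0 in wild type and 39.0 to 64.2 in transgenic arrays. Another on the first type had 39.2 to 65.6 and 35.8 to 52.7. Vps35l, a part of the Commander endosomal recycling machinery, had 64.7, 61.1, 63.4, 56.4 and 55.6 in wild type against 74.9 to 96.8 with a median of 80.7. It too was without overlap, at 0.47 ± 0.08 (adjusted p = 0.0102). Both calls ended without wild type replicate 4 (adjusted p = 0.0577 for Krt77 and 0.0531 for Vps35l).

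Zfp784, a zinc finger protein, was higher without overlap, with 122, 131, 132, 128 and 156 in wild type against 158 to 220 and a median of 180 (0.44 ± 0.09, adjusted p = 0.0473). Fbxw4, an F-box protein of ubiquitin ligases, was higher by 0.77 ± 0.15 (adjusted p = 0.0404), with wild type signals of 243, 363, 281, 173 and 297 against 304 to 544 and a median of 458. Its groups overlapped, since failure replicate 3, at 304, lay below wild type replicate 2, at 363. Fbxw4 has further probe sets that differed by -0.05 ± 0.11 on the first type and by -0.29 ± 0.16 on the second (adjusted p = 0.947 and 0.527).

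On the lower side, Cadm4, a cell adhesion molecule, had wild type signals of 116, 138, 116, 107 and 112 against 79.1 to 97.5 with a median of 89.6 (-0.40 ± 0.08, adjusted p = 0.0473). Rprd1b, which binds the tail of RNA polymerase II, had 336, 336, 325, 326 and 325 against 250 to 300 with a median of 261 (-0.31 ± 0.06, adjusted p = 0.0473). In both genes all transgenic arrays were below all wild type arrays, though by a narrow gap. The calls of Zfp784, Cadm4 and Rprd1b each ended on leaving out 14 of the 16 arrays in turn, with an adjusted p of up to 0.170, 0.174 and 0.170; each was kept without hypertrophy replicate 1, and besides without wild type replicate 5 (Zfp784), hypertrophy replicate 7 (Cadm4) or failure replicate 2 (Rprd1b). Fbxw4 was called without failure replicate 3, hypertrophy replicate 1 or wild type replicate 2 or 5 and ended on leaving out any of the other 12 (up to 0.131). Further probe sets differed by 0.05 ± 0.08 for Rprd1b and by -0.18 ± 0.12 and -0.08 ± 0.08 for Cadm4, with none called.

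Another 4 called probe sets have no single proper gene symbol and were all higher: 109531_at at 1.02 (log2; adjusted p = 5.79e-06), 164580_at at 0.84 (adjusted p = 0.00109), 165318_f_at, at the floor in all 5 wild type arrays and so at least 2.39-fold higher (adjusted p = 0.0126), and the predicted gene Gm5907 at 0.99 (adjusted p = 0.0473). For 109531_at the wild type signals were 418, 490, 461, 489 and 448, those of hypertrophy 927 to 1030 with a median of 966, and those of failure 975, 902 and 656. The hypertrophy arrays lay close together, and failure replicate 3 stood between them and wild type.

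The states were then compared with each other. Of the 15 called probe sets 12 had a larger absolute difference in hypertrophy and 3 in failure. Failure minus hypertrophy was not called for any of the 15 (smallest adjusted p = 0.560), and 2 had an unadjusted p under 0.05, namely 109531_at (0.047) and 164580_at (0.045), both smaller in failure. Selection on the pooled difference bears on these counts. Hypertrophy gives most of the transgenic arrays, and a gap between the states widens the pooled spread. The counts therefore do not compare the states beyond the 15. Over all 7004 probe sets of the second type, failure minus hypertrophy was called for 2. Failure replicate 3 was the failure array nearest to wild type in 12 of the 15, and it was the nearest of all 11 transgenic arrays in 6; its median share of the mean difference was 0.720. Without it, 15 probe sets were called again, 12 of them the same. On the first type, failure replicate 3 was also the only failure array with the sex-linked transcript Eif2s3y (43.7) above Xist (14.3). In failure replicates 1 and 2 Xist was at 160 and 129 and Eif2s3y at 4.94 and 4.83. The part of this difference in the position of replicate 3 was not tested.

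**Figure D2:**
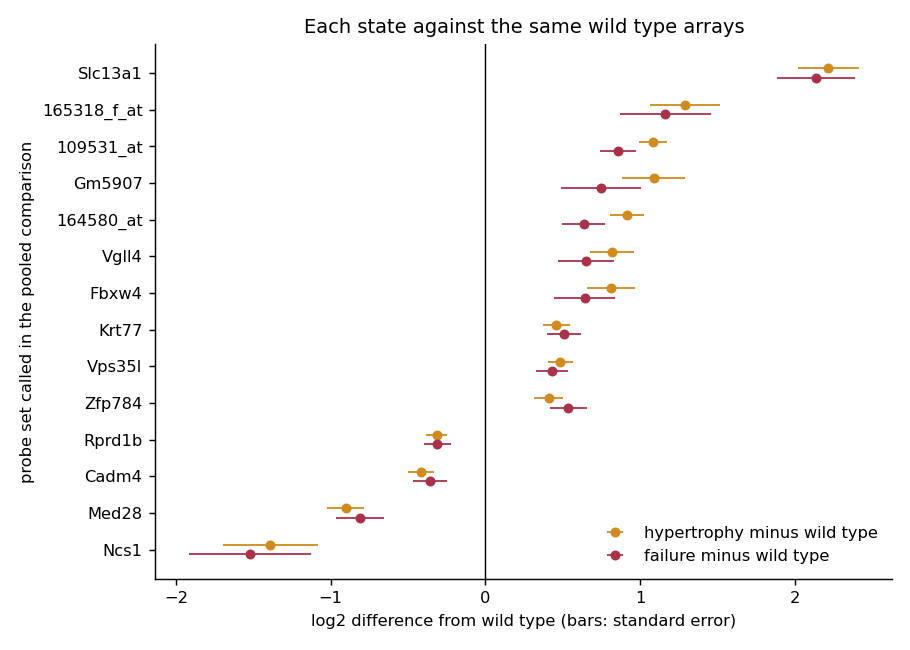
Log2 difference from wild type (x axis, bars are SE) in hypertrophy (n = 8) and failure (n = 3) for 14 called probe sets of the second array type; Styx, at 6.08 and 5.89, lies beyond the axis and is not drawn. Both states lie on one side of 0 for each probe set, and both use the same 5 wild type arrays.

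The genes of cardiac stress that the fetal program is known for were not called in the pooled comparison. The natriuretic peptide gene Nppa had signals of 2578, 969, 1872, 2723 and 992 in wild type, 700 to 3750 with a median of 1426 in hypertrophy, and 3197, 3654 and 4472 in failure. All failure arrays exceeded wild type, while the hypertrophy arrays spanned its range. The pooled log2 difference was 0.24 ± 0.44 (adjusted p = 0.940), made up of -0.11 in hypertrophy and 1.17 in failure, so it is not of one sign in both states. Nppb, the B-type natriuretic peptide gene, had the same pattern, at 0.24 ± 0.30 (adjusted p = 0.905), with -0.03 and 0.95.

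Myh7, which encodes the beta myosin heavy chain, came closest among these markers. Its dimmer probe set had wild type signals of 1326, 988, 923, 1456 and 634, hypertrophy signals of 1377 to 2563 with a median of 1697, and failure signals of 4000, 2992 and 3167. Of the 8 hypertrophy arrays 2 lay within the wild type range and all 3 failure arrays were above every other array. The log2 difference was 1.03 ± 0.24 (adjusted p = 0.381), with 0.77 in hypertrophy and 1.72 in failure. Against wild type, failure alone had an adjusted p of 0.00628 and hypertrophy alone 0.524. The pooled difference was called when both states had equal weight (1.24, adjusted p = 0.0138). The brighter Myh7 probe set differed by 0.26 ± 0.12 (adjusted p = 0.764), with 0.17 in hypertrophy and 0.51 in failure. Its failure arrays also lay above all wild type arrays. Both Myh7 probe sets may bind transcripts of related myosins.

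Skeletal actin, Acta1, had wild type signals of 1515, 1204, 1666, 1308 and 712. In hypertrophy it ran from 1013 through a median of 1857 to 4879, and in failure it was 4291, 3234 and 1777. The arrays of hypertrophy spread from within the wild type range to far above it, and the log2 difference of 0.88 ± 0.36 (adjusted p = 0.755) was positive in both states (0.74 and 1.24). The alpha myosin heavy chain gene Myh6 differed by -0.05 ± 0.08 and the calcium pump gene Atp2a2 by 0.02 ± 0.07 and -0.07 ± 0.16 in its probe sets (adjusted p = 0.928, 0.967 and 0.912); both Atp2a2 values change sign with the Actb ratio as a covariate.

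**Figure D3:**
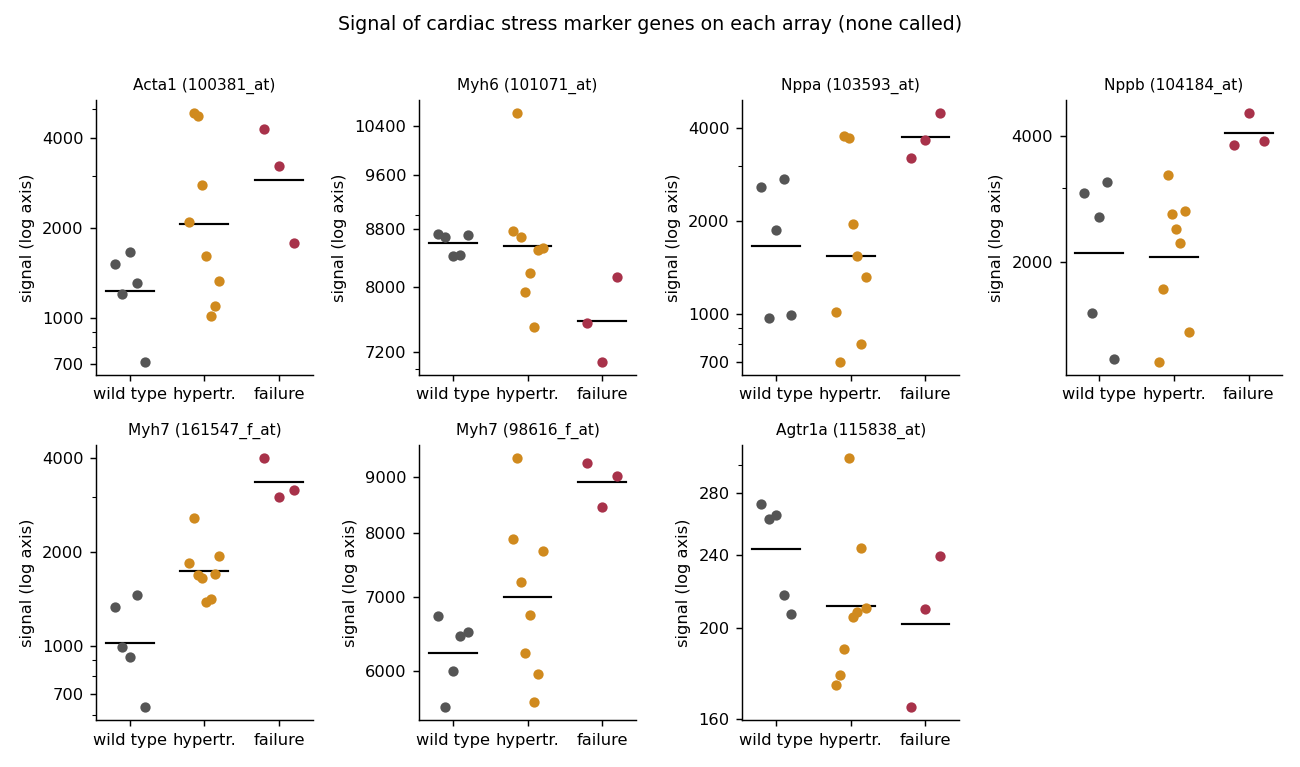
Signal (log axis) of cardiac stress markers and the angiotensin receptor gene Agtr1a on each array (5 wild type, 8 hypertrophy, 3 failure); black bars are means of log2 signals. Failure arrays of Nppa, Nppb, Acta1 and both Myh7 probe sets lie above all wild type arrays, and hypertrophy arrays overlap with wild type in every panel.

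The receptor's own gene gave no sign of the transgene. Agtr1a, which encodes the main angiotensin II type 1 receptor of the mouse, had signals of 272, 262, 265, 217 and 207 in wild type, 174 to 305 with a median of 207 in hypertrophy, and 164, 210 and 240 in failure. The groups overlapped, and the log2 difference was -0.22 ± 0.13 (adjusted p = 0.544). This is no check of the labels, because the species and the transcribed part of the transgene are not known and a 3′ probe set need not detect it. Agtr1b had no tested probe set. Of 19 measured genes of the angiotensin receptor pathway none was called, 2 were higher and 1 lower at an unadjusted p under 0.05, and the median was -0.02.

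Agtrap, whose product binds the receptor and promotes its internalization, had the smallest p of the first array type. Its signals were 112, 96.1, 103, 107 and 90.1 in wild type, 119 to 160 with a median of 138 in hypertrophy, and 162, 203 and 141 in failure. All transgenic arrays lay above all wild type arrays, at 0.54 ± 0.11 (adjusted p = 0.268), with 0.47 in hypertrophy and 0.72 in failure. The adjusted p was 0.0277 in failure alone and 0.417 in hypertrophy alone. The Agtrap probe set of the second type had the opposite direction, at -0.37 ± 0.11 (adjusted p = 0.225), so the data give this gene no direction. The other 2 genes of this list with an unadjusted p under 0.05 were the receptor-uncoupling arrestin Arrb2 (-0.26, with a dimmer probe set at 0.02 ± 0.16, both of the second type) and the NADPH oxidase gene Nox4 (0.46).

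None of the other first-type probe sets of smallest p was called either. Ext1, an enzyme that builds heparan sulfate chains, had wild type signals of 161, 153, 160, 151 and 175 against 66.6 to 145 with a median of 90.4 in the transgenic arrays, a log2 difference of -0.76 ± 0.15 (adjusted p = 0.268) without overlap. Lipoprotein lipase, Lpl, which releases fatty acids from circulating lipoproteins, had 2984, 3330, 2903, 3084 and 2629 against 1672 to 2611 with a median of 2180, also without overlap (-0.51 ± 0.11, adjusted p = 0.280). For this Lpl probe set the adjusted p was 0.028 in failure alone and 0.4999 in hypertrophy alone. A brighter Lpl probe set differed by 0.01 ± 0.09 (adjusted p = 0.995). Mrpl42, a protein of the mitochondrial ribosome, was apart at -0.57 ± 0.13 (adjusted p = 0.340). A pair of Phf7 probe sets went opposite ways, at 1.66 ± 0.37 and -0.38 ± 0.09 (adjusted p = 0.340 for both). Ahnak, Rgs14 and the probe set 92623_at (higher) and Poldip2, Psmb2 and Rxrg (lower) complete the 10 probe sets of this type without overlap.

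To describe whole pathways, each gene was represented by the brightest of its tested probe sets, taking the first type where a gene is on both, which gave 9440 genes. Of these, 4.44% were higher and 4% lower at an unadjusted p under 0.05, and the median log2 difference was -0.00243. In bulk ventricle, fewer cells of a type and less RNA per cell cannot be told apart. The lists were chosen with results of these data known, and their counts are descriptions with no test.

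Respiratory chain and ATP synthase genes leaned lower together, and none of 61 was called. The difference was negative in 57 of the 61, the median was -0.25 (-0.19 in hypertrophy and -0.43 in failure), and 26 (42.6%) were lower at an unadjusted p under 0.05, with none higher. By complex, all 11 measured ATP synthase genes were negative (median -0.28, 8 lower at that level), as were all 8 of complex III (median -0.29, 4 lower). In complex I 25 of 26 genes were negative, with Ndufa10 the exception (median -0.26, 8 lower), in complex IV 9 of 11 (median -0.21, 5 lower; Cox5a and Cox6b1 positive) and in complex II 3 of 4 (median -0.12, none lower; Sdha positive). The complex III subunit Uqcrc2 had signals of 1102 ± 280 (SD, n = 11) in transgenic and 1628 ± 228 (SD, n = 5) in wild type arrays, a log2 difference of -0.60 ± 0.17 (adjusted p = 0.546). Uqcr10, of the same complex, differed by -0.36 ± 0.12 (adjusted p = 0.752).

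The count of 26 hangs on the setting, while the sign does not. With the values as deposited 9 genes were lower at an unadjusted p under 0.05 and with quantile normalization 13, and the difference was negative in 57 and 51 of 61. With the Actb ratio as a covariate 14 were lower, and without the failure arrays 7. Single arrays moved it from 7 (without wild type replicate 3) through 12 and 14 (without wild type replicate 4 or 5) and 17 (without failure replicate 1 or 2) to 34 (without hypertrophy replicate 7 or 8), with between 55 and 58 negative genes throughout. Without hypertrophy replicates 6 and 7 it was 30. The mean log2 signal of the list per array ran from 10.44 to 10.73 in wild type, 10.16 to 10.64 in hypertrophy and 10.05 to 10.41 in failure, so hypertrophy overlapped with wild type and failure lay below it.

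Other energy pathways had smaller medians of the same sign. Glycolysis, glycogen and glucose transport genes had a median of -0.17, with 19 of 25 negative, 2 lower and none higher at an unadjusted p under 0.05. These were the muscle enolase gene Eno3 (-0.51 ± 0.15, adjusted p = 0.625) and the lactate dehydrogenase gene Ldhb (-0.54 ± 0.18, adjusted p = 0.731). In failure alone the adjusted p was 0.0425 for Eno3 and 0.0561 for Ldhb, and in hypertrophy alone 0.914 for both. Among tricarboxylic acid cycle genes the median was -0.12 with 17 of 23 negative and 2 lower, namely citrate synthase Cs (-0.31 ± 0.12, and -0.45 ± 0.21 in a dimmer probe set) and the oxoglutarate carrier gene Slc25a11 (-0.26 ± 0.11). Fatty acid uptake and oxidation genes had a median of -0.05, 3 lower and 1 higher of 31. Ppara, the receptor that drives fatty acid oxidation genes, differed by -0.33 ± 0.10 (adjusted p = 0.625) in its brighter and by -0.04 ± 0.13 (adjusted p = 0.938) in its dimmer probe set. The brighter Ppara probe set had an adjusted p of 0.0425 in failure alone and 0.914 in hypertrophy alone. The thiolase gene Acat1 differed by -0.74 ± 0.25 (adjusted p = 0.275). This was -1.002 in hypertrophy (adjusted p = 0.028) and -0.05 in failure (adjusted p = 0.956). A dimmer Acat1 probe set differed by -0.10 ± 0.21.

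**Figure D4:**
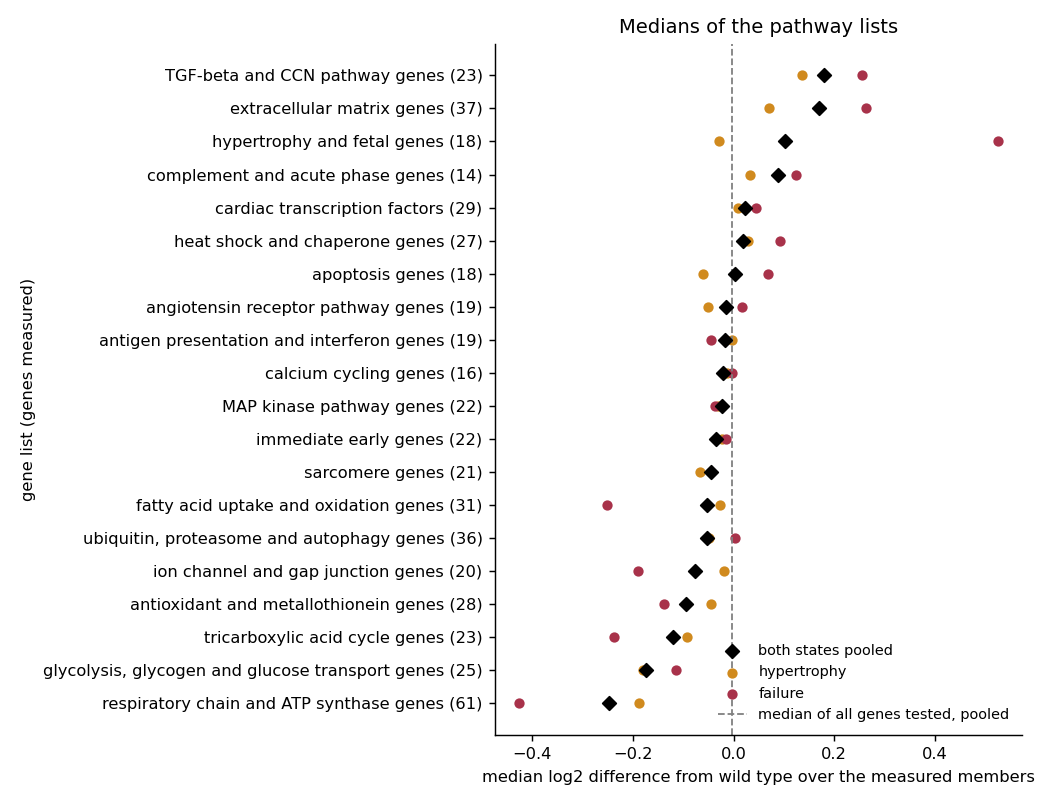
Median log2 difference from wild type (x axis) over the measured members of 20 gene lists (y axis, number of genes measured), pooled (diamonds) and in hypertrophy and failure alone (circles); the dashed line is the pooled median of all genes tested. Respiratory chain genes have the lowest pooled median (-0.25), TGF-beta and CCN pathway genes the highest (0.18), and the states lie apart for the hypertrophy and fetal list.

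Genes of matrix and of its growth factor signals leaned the other way, with none called. Of 23 TGF-beta and CCN pathway genes, 5 were higher (21.7%) and none lower at an unadjusted p under 0.05, with 18 positive and a median of 0.18 (0.14 in hypertrophy, 0.26 in failure). The 5 were receptors or a signal carrier of this family: Bmpr2 (0.34 ± 0.12, adjusted p = 0.316), Acvr1 (0.29 ± 0.11, adjusted p = 0.350), Tgfbr1 (0.39), Tgfbr3 (0.31) and Smad1 (0.29). Bmpr2 and Acvr1 were read on the second type, where all probe sets leaned higher at that level. A dimmer Bmpr2 probe set, also on the second type, showed no overlap and just missed the threshold, at 0.52 ± 0.11 (adjusted p = 0.0547). It was singled out after its values were seen. Extracellular matrix genes had 30 of 37 positive members and a median of 0.17 (0.07 in hypertrophy, 0.26 in failure), with 3 higher: Mgp, an inhibitor of calcification (0.66 ± 0.21, adjusted p = 0.625), the protease inhibitor Timp3 (0.51 ± 0.23, adjusted p = 0.758) and the thrombospondin Thbs2 (0.29). Mgp had an adjusted p of 0.0419 in failure alone and 0.914 in hypertrophy alone. Among 12 fibroblast markers 9 were positive and 2 higher at that level, the actin-severing Gsn (0.53) and the growth factor receptor Pdgfra (0.41), with a median of 0.39 (0.10 in hypertrophy, 0.44 in failure), while the collagen gene Col1a2 was at -0.01 in its brighter probe set and at 0.52 ± 0.45 in a dimmer one. The mean log2 signal of the fibroblast markers per array was 8.20 to 8.5 in wild type and 8.01 to 8.90 in hypertrophy. In failure it was 9.19, 9.22 and 8.17, so that replicate 3 lay below every wild type array and the other failure arrays above all of them. Their part in the matrix values was not tested.

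Of 18 hypertrophy and fetal genes, 4 were higher and 1 lower at an unadjusted p under 0.05, with 12 positive. The median of 0.10 pooled unlike values, -0.03 in hypertrophy and 0.53 in failure. The 4 were Xirp2, which binds actin at the intercalated disc (0.85 ± 0.25, adjusted p = 0.225), Acta1, the brighter Myh7 probe set and the ankyrin repeat gene Ankrd1 (0.42); Tnnt1, slow skeletal troponin T, was lower (-0.38), with another probe set at -0.04 ± 0.12. Xirp2 was positive in both states (0.61 and 1.48), at 1689 ± 716 (SD, n = 11) in transgenic and 869 ± 82.6 (SD, n = 5) in wild type signal, and was called without hypertrophy replicate 1 (0.98, adjusted p = 0.0309). Its adjusted p was 0.0237 in failure alone and 0.353 in hypertrophy alone. A dimmer Xirp2 probe set differed by 0.80 ± 0.55 (adjusted p = 0.615). The counts without single arrays were 1 to 4 higher for this list, 3 to 7 for the TGF-beta list and 1 to 4 for the matrix list. Over all genes they ran from 290 to 590.

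**Figure D5:**
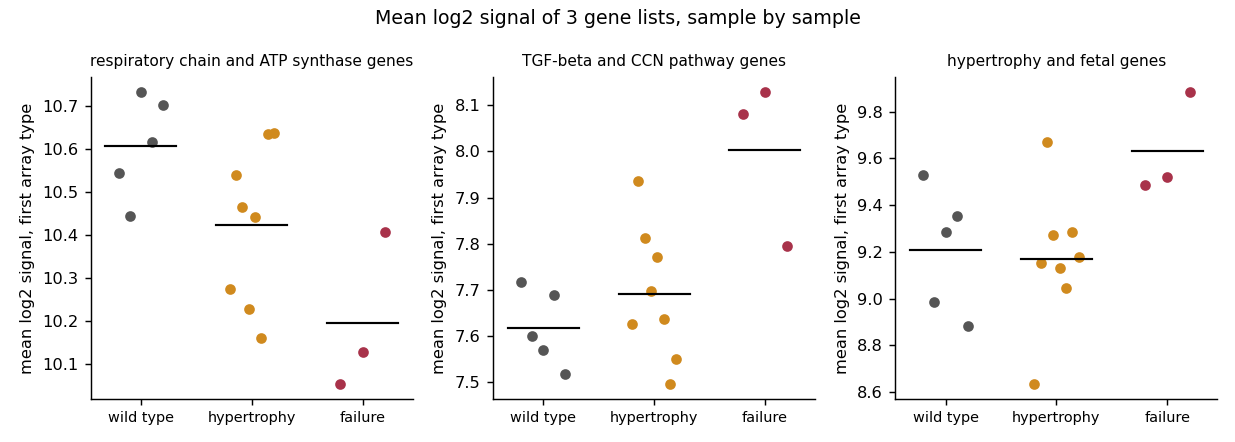
Mean log2 signal of the members on the first array type of 3 gene lists, one point per array (5 wild type, 8 hypertrophy, 3 failure), with the group mean as a bar. Failure arrays lie below all wild type arrays for the respiratory chain and above all of them for the TGF-beta list, and hypertrophy arrays overlap with wild type in every panel.

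Lists of contraction and signalling stayed near the median of all genes. Sarcomere genes had a median of -0.04, calcium cycling genes -0.02, MAP kinase genes -0.02, immediate early genes -0.04, cardiac transcription factors 0.02, heat shock genes 0.02 and apoptosis genes 0.00298. In the transcription factor list Vgll4 was the call, and Tead3, a TEAD factor of the kind it binds, differed by -0.32 ± 0.14 (adjusted p = 0.755). Among the immediate early genes Nr4a2 and Jun differed by -0.39 ± 0.16 and -0.21 ± 0.09, and among the MAP kinase genes the p38 kinase gene Mapk14 by -0.25 ± 0.10 and the phosphatase gene Dusp4 by -0.34 ± 0.15, all short of the threshold. A dimmer Nr4a2 probe set went the other way, at 0.38 ± 0.17 (adjusted p = 0.761). The proteasome subunit gene Psmb2 was without overlap at -0.45 ± 0.11 (adjusted p = 0.384), the mitochondrial chaperonin gene Hspe1 differed by -0.41 ± 0.15 (adjusted p = 0.754), and the mitochondrial superoxide dismutase gene Sod2 by -0.53 ± 0.25 (adjusted p = 0.764), with a second-type probe set at 0.16 ± 0.17. The interferon signal carrier Stat2 differed by -0.33 ± 0.09 (adjusted p = 0.164) and the channel gene Kcnk3 by -0.36 ± 0.16 (adjusted p = 0.755); other probe sets of these genes were at 0.05 ± 0.11 and -0.05 ± 0.11.

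Markers of the labelled tissue were present. All 12 cardiomyocyte markers were tested, with a mean log2 signal per array of 11.77 to 11.96 in wild type and 11.60 to 12.00 in transgenic arrays. All 12 differences were negative, with a median of -0.06 that turned to 0.00672 under quantile normalization. The medians of the other marker lists with at least 5 tested genes lay between -0.06 (smooth muscle and pericyte) and 0.05 (atrial), apart from the fibroblast list. None of these markers was called.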

How the data were processed

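Single-colour Affymetrix arrays of 2 types measured total RNA of ventricle, 16 arrays per type. The deposited intensities are linear and never under 1. The sources used here do not say how the authors summarised and scaled them. Groups came from the sample titles, and the array types were never mixed in a fit.

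Arrays of a type were scaled to a common median only where both the medians and the means trimmed by 10% at each end varied by 5% or more. That held for the first type (6.60% and 5.12%) and not for the second (4.65% and 3.95%); the limit left the kind of trimming unsaid, and the values as deposited were tried as well. Probe sets at or above the median of the array on at least 3 arrays were tested, 6980 and 7004, with control probe sets left out. Log2 values of the floored signals were fitted in limma 3.58.1 (R 4.3.3; lmFit, eBayes) as transgenic against wild type, and in a model of 3 groups for the states, with Benjamini-Hochberg adjustment per array type. The scripts were tested on simulated data. Figures were drawn with matplotlib 3.10.9 (Python 3.11.15). Gene names came from the platform annotation, which gave 1 gene for 10855 and 10603 probe sets. Of these, 12 and 20 had their symbols updated to those of RefSeq (GRCm38.p6). The median SE of a log2 difference was 0.122 and 0.124, and the number of arrays limits the precision.

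Genes are named by a rule: 8 cardiac markers, the called genes with a single proper symbol and the same sign in both states, up to 15 by size on a type (or the 6 of smallest p where fewer than 5 were called), and the 2 members of smallest p in each pathway list. Of these list members the text leaves out Ldb3, Tnni3, Casq1, Casq2, Hspb6, Ctsb, Prdx2, Slc4a3, C1ra, C1s1, Psmb8 and Aifm1, none of them called. Slc4a3 and Prdx2 had a smaller p than Kcnk3 and Sod2, the members given from the same lists. Other genes named were chosen after their values were seen. The comparison and the lists were chosen with earlier results of these data known. Alternatives were the scaling, floor, filter, variance model, array weights, state weights, replicate block, quality covariates, a joint adjustment and leaving out arrays. The unscaled values, the list counts under other settings and the naming of failure replicate 3 were added after seeing the data.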

Additional observations from a re-analysis of the deposited data

Results flagged for a closer look

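In 8 of 126 groups of arrays examined, 1 array lay far from the rest by Dixon's criterion at 95%, which chance gives in about 1 of 20 groups. In each sentence the gap is the distance to the nearest other array as a share of the group's range. On the first array type, Myh6 in hypertrophy replicate 2 was at 10620 against 7498 to 8758 in the other hypertrophy arrays (gap 0.554). Mrpl42 in hypertrophy replicate 7, an array with a low Gapdh ratio, was at 52.2 against 77.7 to 94.3 (gap 0.673). In wild type replicate 2, Hspe1 was at 321 against 472 to 545 (gap 0.729) and the apoptosis gene Bak1 at 149 against 205 to 229 (gap 0.741). On the second type, hypertrophy replicate 1 was low for Atp2a2 (616 against 1049 to 1387, gap 0.655) and for Xirp2 (639 against 1139 to 1804, gap 0.557). Krt77 in wild type replicate 4 was at 122 against 145 to 154 (gap 0.734). Styx in wild type replicate 1 was at 31.0 against 1 to 21.7, and as the others were raised to the floor the gap was 1.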

How the results depend on the processing

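On the first type, where 0 probe sets were called, 2 were called with no filter, 20 with array weights, 4 with both states weighted equally and 1 without hypertrophy arrays 6 and 7. On the second type the 15 calls became 170 with array weights, 23 with the Gapdh ratio as a covariate and 9 with p-values adjusted over both types. They became 9 with the Xist minus Eif2s3y signal as a covariate, taken from the first-type array of the same state and number. Leaving out 1 array gave 5 to 61 calls on the second type and 0 throughout on the first type. The cause of these shifts was not tested. With the replicate number as a block, 1 and 9 were called. Correlations of the deviations of same-numbered arrays ran from -0.19 to 0.364 and from -0.183 to 0.141, with 3 and 2 of 11 pairs over 0.1. Without values for arrays of unlike number, these correlations do not settle whether the numbers pair the samples. Of 2006 alternative values of the named probe sets, 1873 kept direction and side of the threshold, 113 lost the call, 17 gained it and 3 reversed. The reversals were in Atp2a2, where the Actb ratio as a covariate gave -0.000804 for the first-type probe set and 0.06526 for the second-type one. Leaving out single arrays gave 0.0001564 to 0.04723 for the first and -0.1319 to 0.01186 for the second. Of 32 list medians, 18 had both signs over the settings. Dim probe sets at the floor give bounds only.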

Other observations

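Among the 11 transgenic arrays the signals of the Styx and Slc13a1 probe sets, those with the largest differences, ranked arrays alike. This was noticed in the same arrays before it was computed, so the values are a description with no test: Pearson's r was 0.842 and Spearman's rho 0.918, and r was 0.885 without the 2 arrays farthest from the median of Styx and 0.911 in the 8 hypertrophy arrays alone. Both signals also moved with the sex-linked transcripts, which were read on the first array type only. Each second-type array was matched to the first-type array of the same state and replicate number. That both hold the same sample was assumed and not tested. In the 6 transgenic arrays whose match had Xist above Eif2s3y, Slc13a1 ran from 948 to 1503 and Styx from 1619 to 2413. In the other 5 they ran from 689 to 1055 and from 1065 to 2033, ranges that overlap. Their part in the relation was not tested.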
